A study of Mus musculus with 10 samples.

Results

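The transcripts of 9 CC chemokines were followed in mouse bone marrow-derived macrophages: Ccl2, Ccl3, Ccl4, Ccl5, Ccl6, Ccl7, Ccl9, Ccl12 and Ccl22. They were chosen by gene symbol as chemokines that macrophages can make, and all 9 were found among the 57010 gene identifiers of the table. RNA sequencing covered 10 libraries in 4 groups. The groups are 2 libraries of unconfined wild-type (WT) cells, 2 of unconfined cells from mice lacking WASp (WKO), 3 of confined WT cells and 3 of confined WKO cells. All groups share the culture of marrow cells for 7 days with 20 ng/mL recombinant mouse macrophage colony-stimulating factor (M-CSF). Confined libraries come from cells held for 1 h under silicone micropillars at a height of 3 µm. The labels do not give the age or sex of the mice, how the knock-out was made, or whether replicate libraries come from separate animals, so that p-values measure the spread between these libraries, which may be technical. Replicate numbers are those of the library titles.

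Chemokines are small secreted proteins that steer the migration of leukocytes through G protein-coupled receptors. The CC class is named for a pair of neighbouring cysteines near the amino terminus, and most of its mouse genes lie in clusters of related genes. Macrophages are a main source of these proteins: some are made at all times, and others are induced when the cell meets microbes, damaged cells or cytokines. WASp is the blood-cell activator of branched actin assembly by the Arp2/3 complex, and macrophages lacking it are known for poor migration toward chemoattractants.

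Depth was 13295701 to 19329908 reads per library, and 3 reads, taken as the detection floor, were worth a normalized read count of 2.35 to 3.59. Was, the gene of WASp, had 1308 to 1649 normalized reads in the 5 WT libraries and 96.9 to 154 in the 5 WKO libraries, in accord with the genotype labels. The 9 macrophage markers summed to 183182 to 212280 in the WT libraries and to 246070 to 318495 in the WKO libraries. Markers of other cell types differed between the groups too. Sums of the 12 neutrophil and progenitor markers were 3102 to 11683 in the 5 WT libraries, and 23392 to 31836 in the WKO libraries other than confined replicate 5, which had 8897. The 14 stromal markers summed to 1063 and 2160 in unconfined WT against 2912 and 3529 in unconfined WKO, and to 257 to 1011 in confined WT against 1168 to 12773 in confined WKO. The highest sum was that of confined WKO replicate 5, where 13 of the 14 were highest. B cell markers (6 genes) summed to 1028 to 1440 in the same 4 WKO libraries, against 277 in confined WKO replicate 5 and 30.5 to 356 in WT. The 6 mast cell, basophil and eosinophil markers summed to 32.3 to 50.9 in unconfined WT and 149 to 193 in unconfined WKO, and to 0 to 3.21 in confined WT and 8.39 to 68.3 in confined WKO. T and NK cell markers (7 genes), with Ncr1 at 0 in every library, summed to at most 25.1. The 7 dendritic cell markers, with Xcr1 at 0 in every library, summed to 3454 to 6357 in WT and 2317 to 3523 in WKO. Nearly all of this sum was Itgax, with 3439 to 6294 in WT and 2237 to 3458 in WKO. Siglech, on the same list, had 3.21 to 23.0 in WT and 16.8 to 78.9 in WKO. Lyz2 made up most of the macrophage sums, and Igkc most of the B cell sums in WKO, so these sums largely follow single genes. In bulk RNA, fewer cells of a type and less RNA per cell cannot be told apart. The part of these markers in the results below was not tested, so results that rest on confined WKO replicate 5 are given with and without it.

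Ranked by normalized read count per kilobase of exon (GENCODE M21 gene models), the 9 transcripts fell into abundant, middle and scarce classes. In unconfined WT cells Ccl6 stood highest with 5287 ± 61.6 (SD, n = 2), at rank 86 of 12315 genes with a length. Ccl9 followed with 4181 ± 47.3 per kilobase, at rank 106. Ccl2 had 2621 ± 1287, Ccl7 1641 ± 1118, Ccl3 1401 ± 412 and Ccl4 984 ± 147 per kilobase. Ccl2 and Ccl7, and Ccl7 and Ccl3, did not differ beyond their spread, and the step from Ccl3 to Ccl4 was about the SD of Ccl3. Ccl12 was at 151 ± 59.3 per kilobase, rank 4052. Ccl22, at 6.99 ± 3.54, and Ccl5, at 3.99 ± 2.84, were close to the floor and did not differ beyond their spread. By group mean Ccl6 and Ccl9 also led in the other 3 groups. In confined WKO cells, however, neither Ccl6, at 5597 ± 565, nor Ccl9, at 4000 ± 1763, differed from Ccl3 beyond its spread. In replicate 5 of that group Ccl3 had 8242 per kilobase, above Ccl6 at 6191 and Ccl9 at 6008. In the other libraries of the group Ccl3 lay below both. In confined WKO cells the levels of Ccl3, Ccl4, Ccl7 and Ccl2 per kilobase all lay within the SD of Ccl3, which was 3671 ± 3974 (n = 3). Of 10 other CC ligands listed, Ccl1, Ccl11, Ccl17, Ccl19 and Ccl20 were at 0 reads in every library, and Ccl8, Ccl25 and Ccl27a passed the filter for testing.

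**Figure D1:**
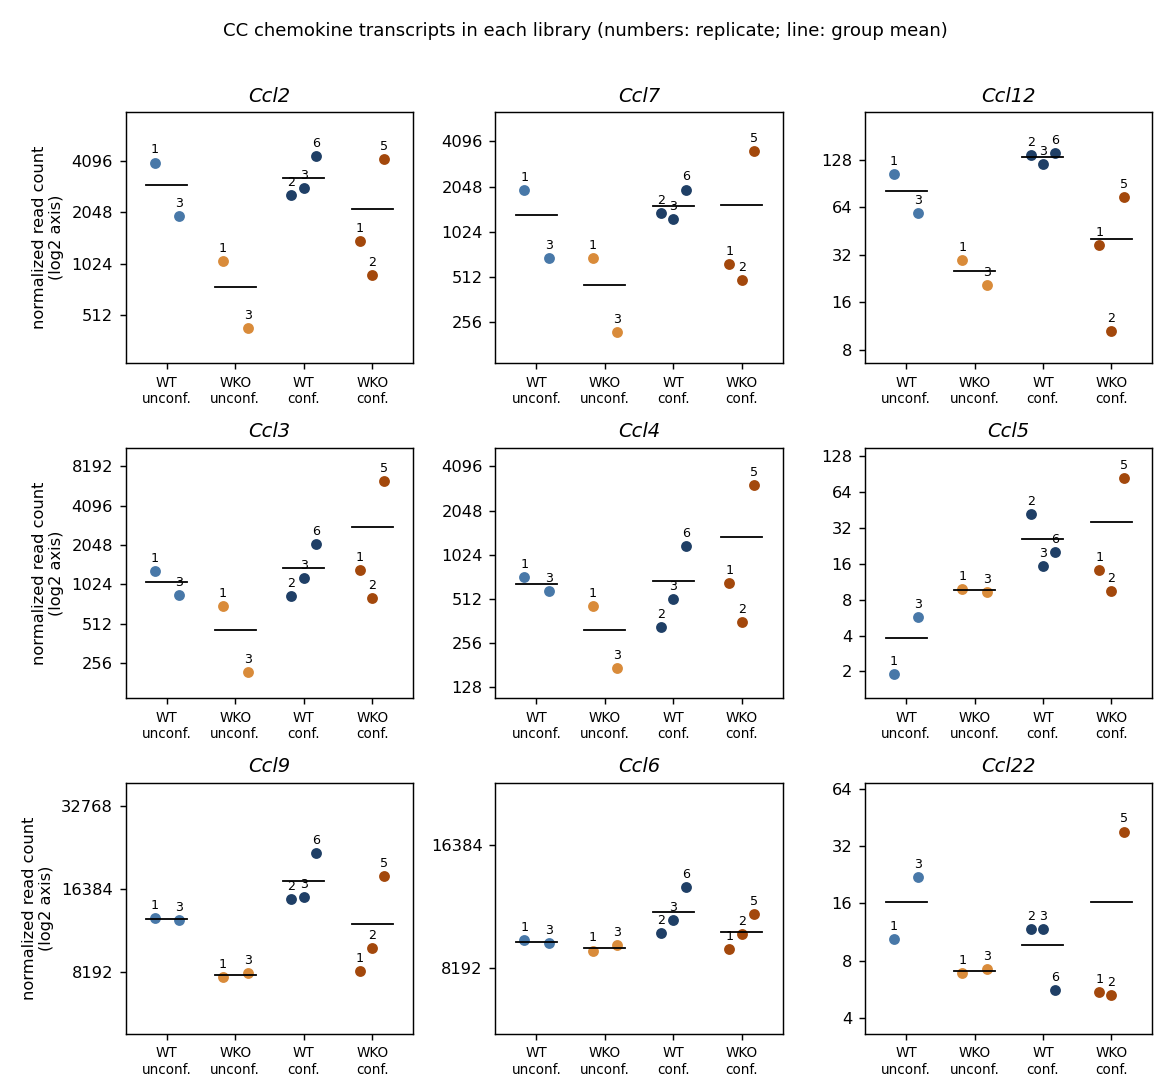
Normalized read count (log2 axis, with its own range in each panel) of the 9 CC chemokines in the 10 libraries, by group on the horizontal axis. Points are libraries with their replicate number and lines are group means. Confined WKO replicate 5 is the highest of the 3 confined WKO libraries in all 9 panels, and Ccl6 varies least.

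Of the 9 genes, 8 lie on mouse chromosome 11 in 2 groups (GRCm38, GENCODE M21 models). Ccl2 (ENSMUSG00000035385, chr11:82035571-82037453), Ccl7 (ENSMUSG00000035373, chr11:82045712-82047525) and Ccl12 (ENSMUSG00000035352, chr11:82101845-82103400) are neighbours on the plus strand. Ccl5 (ENSMUSG00000035042, chr11:83525778-83530518), Ccl9 (ENSMUSG00000019122, chr11:83572919-83578636), Ccl6 (ENSMUSG00000018927, chr11:83587882-83593087) and Ccl3 (ENSMUSG00000000982, chr11:83647844-83649355) follow on the minus strand. Ccl4 (ENSMUSG00000018930, chr11:83662584-83664683) ends this group on the plus strand. Ccl22 (ENSMUSG00000031779, chr8:94745590-94751699, plus strand) stands alone on chromosome 8. No exon of the 9 overlaps an exon of another gene in these models. Overlap was checked in these models only, so counts of neighbours such as Ccl3 and Ccl4 may depend on the annotation and strand setting used, which are not given. Between members, the transcripts of Ccl2 and Ccl7 align at 72.5% identity over 236 bases and those of Ccl6 and Ccl9 at 69.0% over 407 bases, below the 95% at which shared reads were looked for. In Ccl9, 151 of 3006 bases match 8 other genes at 95% identity or more, and reads from there are uncertain.

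The 250 bases before the transcription start were at hand for 5 of the 9 genes (RefSeq, GRCm38.p6). The windows of Ccl12, Ccl9, Ccl6 and Ccl3 are shown because Ccl12 and Ccl9 differed more by genotype than Ccl6, the direct neighbour of Ccl9, and because Ccl3 had the largest difference with confinement in WKO cells. They were searched on both strands for the NF-kB consensus, the AP-1 site TGANTCA, the C/EBP site TTNNGNAA, the PU.1 core GAGGAA and the TATA box TATAAA. Capitals mark matches.
Ccl12 (chr11:82101595-82101844, plus strand): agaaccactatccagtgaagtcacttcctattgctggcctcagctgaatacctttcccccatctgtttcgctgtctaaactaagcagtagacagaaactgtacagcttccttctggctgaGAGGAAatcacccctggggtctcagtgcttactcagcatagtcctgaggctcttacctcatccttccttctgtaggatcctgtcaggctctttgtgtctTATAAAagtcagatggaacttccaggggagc
Ccl9 (chr11:83578637-83578886, minus strand): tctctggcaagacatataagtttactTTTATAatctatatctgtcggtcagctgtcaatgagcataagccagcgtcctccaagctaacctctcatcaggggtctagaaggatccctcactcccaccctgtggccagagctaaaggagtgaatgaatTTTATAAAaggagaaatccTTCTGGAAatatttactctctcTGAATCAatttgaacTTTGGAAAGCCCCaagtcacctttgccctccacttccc
Ccl6 (chr11:83593088-83593337, minus strand): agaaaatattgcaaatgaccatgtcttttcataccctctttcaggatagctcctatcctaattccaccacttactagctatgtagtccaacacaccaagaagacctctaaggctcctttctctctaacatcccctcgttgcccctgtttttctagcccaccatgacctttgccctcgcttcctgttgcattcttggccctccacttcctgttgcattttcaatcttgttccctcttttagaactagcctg
Ccl3 (chr11:83649379-83649628, minus strand): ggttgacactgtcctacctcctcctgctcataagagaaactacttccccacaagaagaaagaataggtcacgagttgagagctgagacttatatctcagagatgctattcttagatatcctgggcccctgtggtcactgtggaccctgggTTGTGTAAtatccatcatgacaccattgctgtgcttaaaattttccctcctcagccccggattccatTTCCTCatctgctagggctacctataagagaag
The Ccl9 window held matches to 4 of the 5 motifs. Counted from the start, these were an AP-1 match at -53 to -47, an NF-kB match at -35 to -26 that overlaps a C/EBP match at -38 to -31, a second C/EBP match at -75 to -68, and 3 TATAAA matches, of which those at -94 to -89 and -92 to -87 overlap. Ccl12 had TATAAA at -31 to -26 and a PU.1 core at -130 to -125. Ccl3 had a C/EBP match at -100 to -93 and a PU.1 core on the other strand at -33 to -28. The windows of Ccl6 and Ccl22 held none of the 5. Among the 32851 RefSeq windows of the same length, 7.25% held the NF-kB consensus, 6.75% TGANTCA, 36.8% TTNNGNAA, 23.3% GAGGAA and 12.4% TATAAA. A match is a description of the letters only.

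Differences are given as log2 fold changes of the normalized read count plus 1, from a limma fit to all 10 libraries, with p-values adjusted over 12455 genes and a threshold of 0.05. All 9 members passed the filter of a mean of 10, but Ccl22 did so only through confined WKO replicate 5. No member passed in any of the 5 comparisons of the design. The background was low for WKO against WT in unconfined cells, where 0.145% of all tested genes passed. It was 2.59% for WKO against WT in confined cells, 1.16% for confinement in WT, 1.72% for confinement in WKO, and 0.0% for the interaction, the response of WKO cells to confinement less that of WT cells. At an unadjusted p under 0.05, Ccl2, Ccl9 and Ccl12 were below the threshold for genotype in unconfined cells (background 9.6%), and Ccl9 and Ccl12 in confined cells (16.8%). Under the same rule Ccl5 was called for confinement in WT (12.2%), Ccl2, Ccl3 and Ccl4 for confinement in WKO (14.1%), and none for the interaction (2.07%). edgeR's quasi-likelihood test on the recovered reads also passed 0 of the 9 in each of the 5. DESeq2 passed Ccl12 alone, for genotype in confined cells, where it called 6.23% of all genes.

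The first question of the design is what the loss of WASp does to each transcript. The 3 monocyte attractants Ccl2, Ccl7 and Ccl12, which act mainly through the receptor Ccr2, were lower in unconfined WKO cells than in WT cells, though not beyond the adjusted threshold. Ccl2, also called MCP-1, had 4018 and 1947 normalized reads in the unconfined WT libraries and 1065 and 429 in the unconfined WKO libraries. The groups did not overlap, which held for all 9 members in this comparison and for 44.9% of all tested genes. The log2 fold change was -2.05 (SE 0.62, adjusted p = 0.265). In confined cells Ccl2 had 2583, 2848 and 4383 in WT and 1391, 881 and 4195 in WKO. Confined WKO replicate 5 reached the WT range and the other 2 libraries did not. The difference was -0.88 (SE 0.51, adjusted p = 0.422) with it and -1.52 (SE 0.37, adjusted p = 0.0423) without it.

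Ccl7, or MCP-3, the direct neighbour of Ccl2, had 1947 and 681 normalized reads in unconfined WT and 681 and 218 in unconfined WKO, so that the groups only touched. In confined cells it had 1368, 1246 and 1957 in WT and 625, 487 and 3547 in WKO, the last being the highest of all 10 libraries. Its log2 fold change by genotype was -1.58 (SE 0.81, adjusted p = 0.596) in unconfined cells. In confined cells it was -0.54 (adjusted p = 0.747), and -1.44 (adjusted p = 0.112) without replicate 5.

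Ccl12, or MCP-5, a mouse chemokine close to Ccl2, was the 1 member of 9 whose genotypes did not overlap in confined cells (21.1% of all tested genes), or in both conditions in the same direction (12% of all tested genes), so these shares were not above the background. It had 104 and 58.5 normalized reads in unconfined WT against 29.6 and 20.6 in unconfined WKO, a log2 fold change of -1.62 (SE 0.66, adjusted p = 0.465). In confined cells it had 138, 121 and 142 in WT against 36.9, 10.5 and 74.3 in WKO. In confined cells the difference was -2.07 (SE 0.54, 95% interval -3.25 to -0.89, adjusted p = 0.0683), and -2.69 (SE 0.45, adjusted p = 0.00743) without replicate 5. Over 21 alternatives its adjusted p in confined cells lay between 0.000316 and 0.200.

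Ccl9 and Ccl6 are rodent chemokines that bind Ccr1 and are abundant in resting macrophages. Ccl9 had 12833 and 12629 normalized reads in unconfined WT and 7815 and 8086 in unconfined WKO, with little spread within either group. In confined cells it had 15035, 15255 and 22028 in WT and 8235, 10012 and 18293 in WKO. Replicate 5 of WKO again lay within the WT range and the other 2 below it. The log2 fold change by genotype was -0.68 (SE 0.30, adjusted p = 0.494) in unconfined cells and -0.58 (SE 0.24, adjusted p = 0.248) in confined cells, or -0.92 (SE 0.15, adjusted p = 0.0062) in confined cells without replicate 5.

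Ccl6 varied little over the same libraries. It had 9569 and 9413 normalized reads in unconfined WT, 9038 and 9313 in unconfined WKO, 9966, 10761 and 12924 in confined WT and 9095, 9934 and 11113 in confined WKO. The interval of its genotype difference was -0.35 to 0.26 in unconfined cells and -0.40 to 0.09 in confined cells. Within each library the ratio of Ccl9 to Ccl6, both per kilobase, was 0.791 in either unconfined WT library and 0.510 and 0.512 in the unconfined WKO libraries. It was 0.889, 0.836 and 1.00 in confined WT, and 0.534, 0.594 and 0.970 in confined WKO. The ratio was thus below every WT library in 4 of 5 WKO libraries, and the exception was confined WKO replicate 5. The ratios of Ccl2 to Ccl7, of Ccl3 to Ccl4 and of Ccl2 to Ccl12 were also taken. In each of them several WKO libraries lay within the WT range. Confined WKO replicate 5 is also the WKO library in which the sum of the neutrophil and progenitor markers was within the WT range. Of these markers, Csf3r lay above every WT library at 1881 normalized reads and Ctsg below every one at 0. The stromal sum was highest in this library. The part of either set of markers in the ratio of Ccl9 to Ccl6 was not tested.

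**Figure D2:**
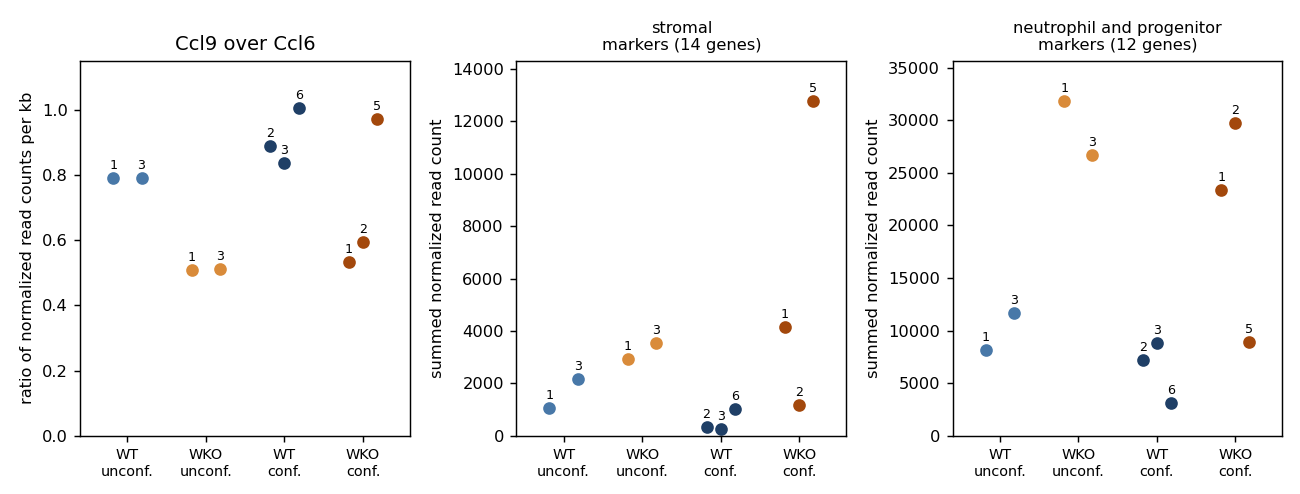
Left, ratio of Ccl9 to Ccl6 (both as normalized read count per kilobase) in each library; middle and right, summed normalized read count of 14 stromal and of 12 neutrophil and progenitor markers. Points are libraries with their replicate number, by group; confined WKO replicate 5 has a ratio of 0.970, inside the WT range, and a stromal sum of 12773, the highest of the 10.

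Ccl3 and Ccl4, the MIP-1 alpha and beta chemokines that recruit monocytes and T cells, did not separate the genotypes in confined cells. Ccl3 had 1297 and 850 normalized reads in unconfined WT and 701 and 219 in unconfined WKO, then 836, 1143 and 2079 in confined WT and 1325, 797 and 6313 in confined WKO. Ccl4 had 718 and 581 in unconfined WT and 459 and 172 in unconfined WKO, then 332, 509 and 1183 in confined WT and 654, 357 and 3049 in confined WKO. For both, the unconfined groups did not overlap and the confined groups did. The genotype difference of Ccl3 was -1.42 (SE 0.80, adjusted p = 0.642) in unconfined cells and 0.58 (adjusted p = 0.720) in confined cells. That of Ccl4 was -1.20 (SE 0.83, adjusted p = 0.716) and 0.61 (adjusted p = 0.716). Without replicate 5 the confined differences were -0.29 for Ccl3 and -0.28 for Ccl4, so this 1 library sets their sign.

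The 2 scarce members had few reads, near the floor in some libraries and above it in others. Ccl5, or RANTES, a chemokine that recruits T cells and eosinophils, had 1.90 and 5.76 normalized reads (2 and 6 reads) in unconfined WT and 9.87 and 9.29 in unconfined WKO. It was the one member whose unconfined WKO values lay above those of WT (1.26, SE 0.95, adjusted p = 0.747). In confined cells Ccl5 had 41.8, 15.3 and 20.1 in WT and 14.1, 9.47 and 83.9 in WKO, a difference of -0.04 (adjusted p = 0.987), or -0.96 (adjusted p = 0.554) without replicate 5. Ccl22, a ligand of Ccr4 that draws helper and regulatory T cells, had 10.4 and 22.1 in unconfined WT, 6.91 and 7.23 in unconfined WKO, 11.8, 11.7 and 5.62 in confined WT, and 5.49, 5.26 and 38.3 in confined WKO. Its level in 2 of the 3 confined WKO libraries was the lowest of the 10, and in the third the highest. Its genotype difference was -1.01 (adjusted p = 0.816) in unconfined and 0.19 (adjusted p = 0.939) in confined cells.

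Over the 9 members the median genotype difference was -1.20 in unconfined cells, with 8 of 9 negative, beside a median of 0.002 over all tested genes. In confined cells it was -0.16, with 6 of 9 negative, beside 0.004 over all genes, and -0.92 with 9 of 9 negative without WKO replicate 5. Without that library Ccl2 passed in unconfined cells (adjusted p = 0.0315), where 1.13% of all genes passed, and Ccl2, Ccl9 and Ccl12 passed in confined cells, where 3.36% did. The library is a confined one, so the unconfined difference of Ccl2 stayed at -2.05 and only its SE fell, to 0.41. Both genotype comparisons were then averaged over the 2 conditions, a contrast added after the data had been seen. In this average Ccl12 fell by 1.84 (SE 0.43, adjusted p = 0.0294), with 5 of 5 WKO libraries below the WT libraries of the same condition, the separation that 12% of all genes had in one direction or the other. Ccl2 (-1.46, SE 0.40, adjusted p = 0.0564) and Ccl9 (-0.63, SE 0.19, adjusted p = 0.0815) missed the threshold, and 5.57% of all genes passed, or 20.2% at an unadjusted p under 0.05. The call of Ccl12 was lost when any 1 of 7 libraries was left out, namely both unconfined WT, both unconfined WKO and all 3 confined WT libraries, which gave differences of -2.05 to -1.64 and adjusted p-values of 0.0533 to 0.140. Without confined WKO replicate 5 the average was -2.15 for Ccl12, -1.78 for Ccl2, -1.51 for Ccl7 and -0.80 for Ccl9. These 4 passed, with adjusted p-values from 0.00101 to 0.0139, beside 7.84% of all genes.

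**Figure D3:**
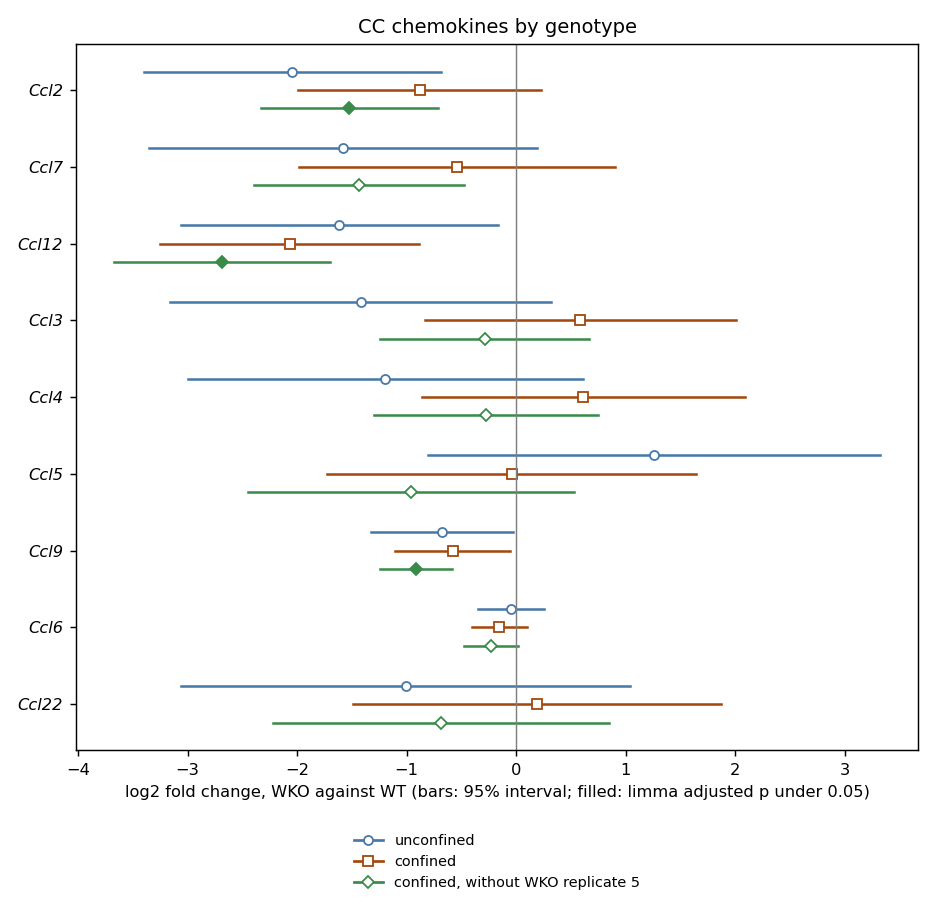
Log2 fold change of WKO against WT (horizontal axis) for each CC chemokine in unconfined cells, in confined cells and in confined cells without WKO replicate 5. Bars are 95% intervals of the limma fit and filled symbols have an adjusted p under 0.05. Only Ccl2, Ccl9 and Ccl12 have filled symbols, all without replicate 5.

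The second question is how 1 h of confinement acts on the same transcripts. In WT cells the differences of Ccl2, Ccl7, Ccl3 and Ccl4 were smaller than their errors. The log2 fold change was 0.19 for Ccl2 (adjusted p = 0.933), 0.37 for Ccl7 (adjusted p = 0.887), 0.26 for Ccl3 (adjusted p = 0.924) and -0.14 for Ccl4 (adjusted p = 0.964). The interval of Ccl3 was -1.33 to 1.85, so these libraries leave room for a change of some size in either direction. The confined WT libraries lay above both unconfined ones for 4 members, while 35.9% of all genes did not overlap in this comparison. These were Ccl12 (0.77, SE 0.61, adjusted p = 0.666), Ccl9 (0.43, SE 0.27, adjusted p = 0.573), Ccl6 (0.23, SE 0.13, adjusted p = 0.509) and Ccl5. Ccl5 had 41.8, 15.3 and 20.1 confined against 1.90 and 5.76 unconfined, a difference of 2.47 (SE 0.86, adjusted p = 0.248).

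In WKO cells the median difference of the 9 was 1.17 beside -0.01 over all genes, and all 9 were positive, though 2 of them, Ccl12 (-0.30) and Ccl22 (-0.34), were negative without replicate 5. Ccl3 had the largest, with 1325, 797 and 6313 normalized reads in confined against 701 and 219 in unconfined cells. These groups did not overlap, nor did those of Ccl9 and of 28.3% of all genes, and the log2 fold change was 2.26 (SE 0.73, 95% interval 0.67 to 3.85, adjusted p = 0.175). Ccl4 differed by 1.66 (SE 0.75, adjusted p = 0.352), Ccl7 by 1.41 (adjusted p = 0.414) and Ccl2 by 1.35 (SE 0.57, adjusted p = 0.309). The differences were smaller without replicate 5: the median was 0.25, and the differences were 1.39 for Ccl3 (adjusted p = 0.242), 0.78 for Ccl4, 0.52 for Ccl7 and 0.71 for Ccl2. The difference between the genotypes in the response was tested by the interaction. It was largest for Ccl3 at 2.00 (SE 1.03, 95% interval -0.24 to 4.25, adjusted p = 0.999) and Ccl4 at 1.81, and passed for no gene. This order rests on replicate 5. Without it the interaction was 1.13 for Ccl3 and 0.92 for Ccl4. The largest was then that of the scarce Ccl5, in the other direction, at -2.22 (95% interval -4.42 to -0.01, adjusted p = 0.9999). The 2 confinement comparisons share no library, but each shares its libraries with the genotype comparisons.

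Other inducible genes in the same libraries behaved otherwise. Of 6 tested cytokines and CXC chemokines listed for comparison, all 6 were higher with confinement in both genotypes. The adjusted threshold was passed by 4 in WT and 6 in WKO, and the median differences over the 6 were 5.92 and 5.73. Cxcl2, a neutrophil attractant, had 50.3 and 31.7 normalized reads in unconfined WT and 2207, 4962 and 8728 in confined WT, a log2 fold change of 6.80 (SE 0.71, adjusted p = 0.00131). In WKO it had 51.3 and 66.1 unconfined against 5636, 2471 and 20070 confined (6.79, adjusted p = 0.000837). Tnf, the tumour necrosis factor gene, rose by 6.47 in WT and 6.46 in WKO, Cxcl1 by 8.48 and 5.77, and Il1b, the interleukin-1 beta gene, by 5.36 and 5.68. Confined WKO replicate 5 was the highest library for all 6 of these genes. None of the 6 passed for genotype in either condition or for the interaction. The call of Il1b was lost without either unconfined WT library (adjusted p = 0.0585 and 0.0926) and, in WKO, without unconfined WKO replicate 1 (adjusted p = 0.0638). The WKO call of Cxcl10 was lost without any 1 of 7 libraries, the 5 of WT and the 2 of unconfined WKO (adjusted p = 0.0517 to 0.294), and that of Cxcl3 without either unconfined WKO library (0.117 and 0.129).

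**Figure D4:**
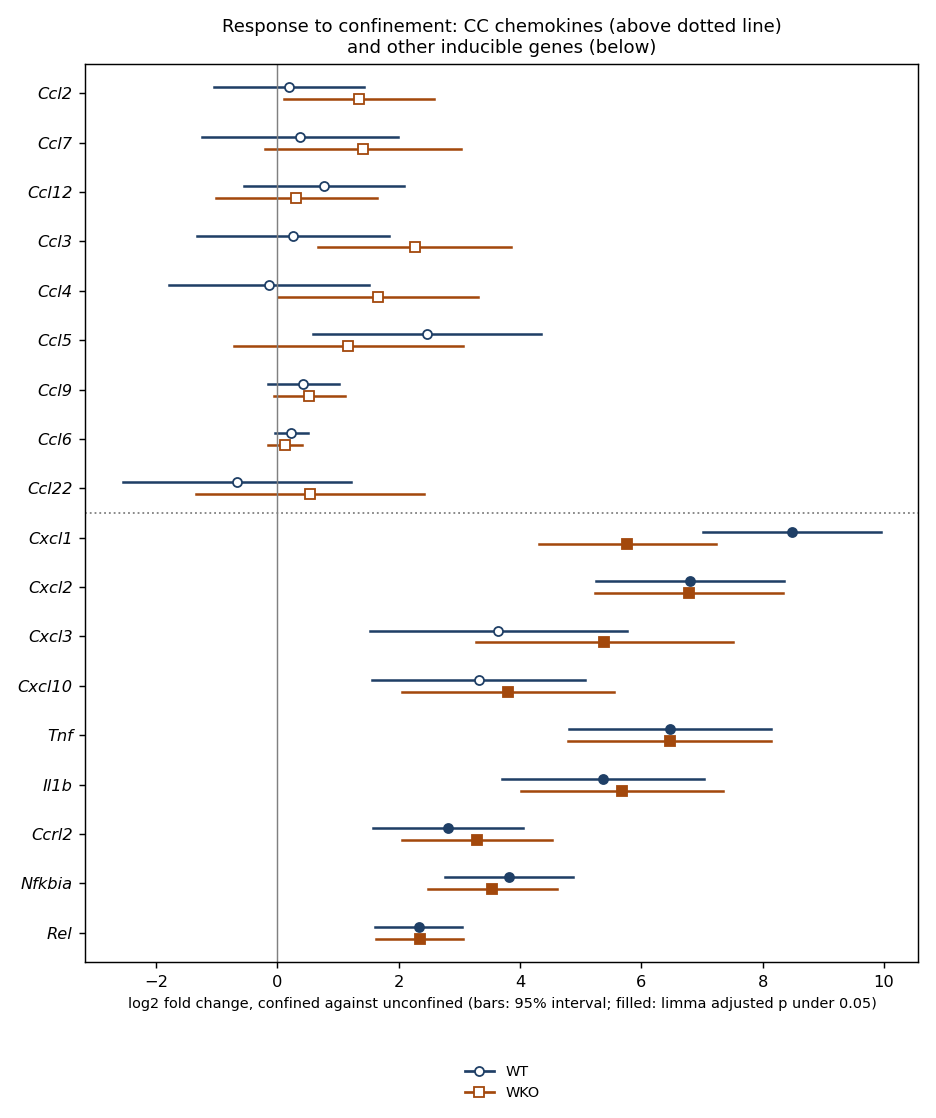
Log2 fold change of confined against unconfined cells (horizontal axis) in WT (circles) and WKO (squares) for the 9 CC chemokines above the dotted line and for listed inducible genes below it. Bars are 95% intervals of the limma fit and filled symbols have an adjusted p under 0.05. No CC chemokine has a filled symbol, while Cxcl2 stands at 6.80 and 6.79.

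A list of 12 genes held transcription factors known to act on CC chemokine promoters, and Nfkbia. With confinement 8 of the 12 were higher in WT and 10 in WKO, and of these 5 passed in WT and 6 in WKO. Nfkbia, the NF-kB inhibitor that is itself an NF-kB target, rose by 3.82 in WT and 3.55 in WKO, and Rel, an NF-kB subunit, by 2.33 and 2.34. Irf1, an interferon regulatory factor, rose by 3.10 and 2.43. Cebpb, a C/EBP factor, rose by 1.95 in WT, and Fos, a part of AP-1, by 2.27 in WKO. None of the 12 passed for genotype. In WT the calls of Nfkbia and Rel were lost without either unconfined library (adjusted p up to 0.0569 and 0.0805), that of Cebpb without unconfined replicate 1 or any confined library (up to 0.161), and that of Fos without any 1 of the 5 WT libraries (0.120 to 0.292). In WKO those of Nfkbia, Rel, Irf1 and Cebpb were lost without unconfined replicate 1 (up to 0.0888 for the first 3, and 0.272 for Cebpb), and those of Fos and Jun without unconfined replicate 3 (0.0639 and 0.172).

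On the receptor side, 5 of 14 listed genes were tested. Ccrl2, an atypical receptor that does not signal through G proteins, passed for confinement. It had 255 and 219 normalized reads in unconfined WT and 1726, 2161 and 1232 in confined WT, a rise of 2.81 (SE 0.56, adjusted p = 0.0368). In WKO it had 135 and 406 unconfined against 1899, 1143 and 5588 confined, a rise of 3.29 (adjusted p = 0.0129). The WT call was lost without any 1 of the 5 WT libraries (adjusted p = 0.0802 to 0.276) and the WKO call without unconfined replicate 1 (adjusted p = 0.215), with differences of 2.50 to 3.03. Receptors of the members kept to narrower ranges: group means were 1778 to 2605 for Ccr1, 127 to 289 for Ccr2 and 462 to 517 for Ccr3, and none of these 3 passed. All 13 listed genes of chemokine receptor signalling were tested, and 0 passed in the 5 comparisons.

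Of the 3 other CC ligands tested, Ccl25 and Ccl27a are known from thymus and gut and from skin, and Ccl8 is also called MCP-2. Ccl8 had 26.6 and 5.76 normalized reads in unconfined WT against 48.3 and 38.2 in unconfined WKO, and 10.7, 16.4 and 7.23 in confined WT against 43.2, 23.2 and 24 in confined WKO. WKO lay above WT without overlap in both conditions, which is among the 12% of all genes so separated, and the sign was opposite to that of Ccl2, Ccl7 and Ccl12. The difference was 1.69 (adjusted p = 0.462) in unconfined and 1.33 (adjusted p = 0.259) in confined cells, so it did not pass. Ccl25 differed by 0.46 and -0.43 and Ccl27a by 0.43 and -1.02, and neither passed.

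Which transcripts varied together was described by Pearson correlations of log2 values over the 10 libraries, which share group, genotype and depth. Of the 36 pairs the highest were Ccl3 with Ccl4 at 0.969, Ccl2 with Ccl7 at 0.956, Ccl3 with Ccl7 at 0.883 and Ccl6 with Ccl9 at 0.879. Without confined WKO replicate 5 these were 0.934, 0.976, 0.836 and 0.865. Nearness on the chromosome did not always go with a high value, since Ccl6 with Ccl3 had 0.589 and Ccl5 with Ccl9 0.459, or 0.551 and 0.293 without that library. The neighbours Ccl7 and Ccl12 had 0.766, or 0.852 without it, and Ccl2 with Ccl12 had 0.862, or 0.886 without it. Ccl5 and Ccl22 did not keep their values with Ccl3 when that library was left out. Ccl5 with Ccl3 went from 0.521 to 0.0833 and Ccl22 with Ccl3 from 0.516 to -0.0382. Closest genes were sought only among tested genes with a higher mean than the filter required. The closest to Ccl2 was Blcap (0.977), followed by Ccl7, and the closest to Ccl3 was Ccl4, followed by Klhl25 (0.948). Clic4 (0.975) and Myadm (0.960) were closest to Ccl9, Pid1 (0.945) to Ccl6, and Dio2 (0.940) to Ccl12. Prdm1 (0.931) was closest to Ccl5 and Creb3l1 (0.898) to Ccl22, and these values were 0.874 and 0.823 without confined WKO replicate 5.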

How the data were processed

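RNA of 10 libraries was sequenced after preparation of libraries for mRNA from 5 ng of total RNA. The authors deposited a signal for each gene, the normalized read count. Per the submitters' processing notes, FastQC, Trim Galore and STAR were used with GRCm38 (mm10); their roles and versions, the counting tool, annotation and strandedness are not given in the sources used here. In each library 100% of values were whole multiples of 1 read (relative tolerance 1e-06), and the factors equalled DESeq2's median-of-ratios size factors to within 3.33e-15. This scaling removes differences in depth, not in composition.

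The fit used limma 3.58.1 in R 4.3.3 on log2(normalized read count + 1), with 1 mean per group, all 10 libraries and a mean-variance trend (6 residual degrees of freedom). The log2 scale with a pseudocount of 1 understates changes of low genes. Genes with a mean of at least 10 were tested (12455), with Benjamini-Hochberg adjustment over all of them. edgeR 4.0.16 and DESeq2 1.42.0 were run on the recovered reads. The fit was tested on simulated data. Other alternatives were the pseudocount, the filter, array weights, a replicate block and leaving out each library. The floor of 3 reads covers counting error only. No 2 replicates agreed within sampling noise (chi-square per degree of freedom 7.56 to 78.3), and none was left out.

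The members, lists and tests were chosen with earlier results of these data known. Named were all 9 members, up to 4 passing genes of a list per comparison by smallest p, and the closest genes by correlation; the other CC ligands and the receptors were named because they were tested, except 1 receptor that is not reported here, and Ccl8 was described after its values had been seen. Sequence was compared with blastn 2.17.0.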

Additional observations from a re-analysis of the deposited data

How the results depend on the processing

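No pairing of the libraries by replicate number was seen. Deviations from the group means correlated at -0.110 to 0.0764 over 7 pairs with the same number, and 0 of 8 libraries with such a partner correlated best with it. In groups of 2 libraries the deviations mirror each other, so some of these correlations repeat. They cannot settle whether the numbers pair the libraries. With the replicate block, which leaves 2 residual degrees of freedom, 5 of the 9 chemokines passed for genotype in unconfined cells (0 without the block), 4 in confined cells (0), 6 in the average (1) and 1, Ccl3, for confinement in WKO (0). The block fits confined WT replicate 6 and confined WKO replicate 5 exactly, since no other library shares their numbers. Its differences are thus taken without these libraries. For genotype in unconfined cells 2 passed with only the groups compared. For genotype in confined cells 3 passed with array weights and 1 with DESeq2. For the average, 0 passed without the filter or without the trend, 4 with array weights and 2 with DESeq2. Leaving out 1 library gave 0 to 1, 0 to 3 and 0 to 4 for these 3 comparisons. Array weights, which give each library its own weight, were 0.283, 3.74 and 0.321 for confined WKO replicates 1, 2 and 5. Under this setting the confined WKO group thus rests largely on replicate 2. Apart from the shares given above, the share of all genes passing under each setting was not taken. These counts are therefore not a result about the chemokines as against other genes. The level per length of Ccl6 was 7023 normalized reads per kilobase of its longest transcript, against 5634 per kilobase of exon. Apart from the libraries that the block leaves out, the cause of these differences between settings was not tested.

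Signs turned only for log2 differences that had not passed. For genotype in confined cells, array weights and the block gave -0.33 and -0.41 for Ccl3, -0.34 and -0.14 for Ccl4, and -0.59 and -0.79 for Ccl22; edgeR and DESeq2 gave 0.44 and 0.47 for Ccl5 and 0.0070 and 0.029 for Ccl7, and a pseudocount of 5 gave 0.017 for Ccl5. For confinement in WKO, array weights and the block gave -0.85 and -0.15 for Ccl12 and -0.17 and -0.22 for Ccl22. For confinement in WT, edgeR and DESeq2 gave 0.068 and 0.054 for Ccl4. For the interaction, the block gave -0.34 for Ccl7 and -0.0231 for Ccl9, and array weights -0.00653 for Ccl9. Leaving out 1 library gave, for confinement in WT, -0.34 to 0.71 (Ccl2), -0.10 to 0.56 (Ccl3), -0.65 to 0.26 (Ccl4) and -0.38 to 1.13 (Ccl7). For genotype in confined cells it gave -0.29 to 1.20 (Ccl3), -0.28 to 1.27 (Ccl4), -0.96 to 0.55 (Ccl5) and -0.69 to 0.64 (Ccl22). In the average it gave -0.86 to 0.00055 (Ccl3) and -0.74 to 0.059 (Ccl4). For confinement in WKO it gave -0.30 to 1.05 (Ccl12) and -0.34 to 0.99 (Ccl22), and for the interaction -0.19 to 0.00033 (Ccl6), -0.24 to 0.34 (Ccl9) and -1.07 to 0.28 (Ccl12). Counting error weighs on Ccl5 and Ccl22, whose reads are few.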
